A study of Mus musculus with 4 samples.

Results

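The proteasome subunit genes were followed in mouse invariant natural killer T (iNKT) cells on 4 Affymetrix whole-transcript arrays. Members were all genes whose only symbol in the platform annotation starts with Psma, Psmb, Psmc, Psmd, Psme, Psmf or Psmg and a digit, which gave 49 of the 22180 named genes on the array, read by 52 probe sets. Psma4 and Psme2b had no probe set named with them alone and were not analysed here. Of the 49, 47 are proteasome genes, while Psmc3ip, a partner of meiotic recombinases, and Psme3ip1, a protein that binds the PA28γ activator, share only the first letters of the symbol. Where a gene had several probe sets, the one with the highest mean over the arrays stood for it.

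One group of 2 arrays held RNA of iNKT cells from CD4-Vα14Tg mice, in which a T cell receptor α chain transgene of the invariant Vα14 type is driven by the CD4 promoter, and the other group of 2 arrays held RNA of iNKT cells from wild-type (WT) mice. The sources used here give no strain, age, organ or sort for either group, nor the number of mice behind an array, and the extraction is described for frozen tissue. The p-values therefore measure the spread between these samples, which may be technical. The design allows 1 comparison, which asks how iNKT cells that carry the transgene differ in transcription from WT iNKT cells.

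The proteasome is the protease that breaks down ubiquitin-tagged proteins. Its 20S core is a barrel of outer α rings and inner β rings, with the catalytic sites on 3 kinds of β subunit, and the 19S particle on its ends recognises ubiquitin, removes it, and unfolds the substrate with a ring of ATPases. Lymphocytes replace much of the constitutive catalytic set by the immunoproteasome subunits Psmb8, Psmb9 and Psmb10, which interferon-γ induces and which change the peptides made for MHC class I. The PA28 activator, built from Psme1 and Psme2, is induced by the same cytokine.

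All values are log2 signals, 1 value per probe set and array, and all differences are CD4-Vα14Tg minus WT on that scale. Dim genes were set aside: a test needed signals on at least 2 arrays that reached the 40th percentile of named probe sets, a level between 4.65 and 4.69. This left 13602 genes, among them 46 of the 49 members. The iNKT identity genes were well above that level, with Zbtb16, the PLZF gene, between 11.08 and 11.39 and Cd3g between 12.11 and 12.29. Of 10 tested identity genes, 2 were called lower, Il2rb and Klrb1c, which mark mature iNKT cells, with differences of -0.80 and -1.45 (limma adjusted p = 0.0427 and 0.00326). Of 41 named markers of 7 other cell types (B cells, macrophages, dendritic cells, neutrophils, double-positive thymocytes, thymic epithelium and hepatocytes), 27 did not reach it on at least 2 arrays. Of the 14 tested, 1 was called higher, the integrin gene Itgam, with values of 5.42 and 5.44 in CD4-Vα14Tg against 4.84 and 4.69 in WT (limma adjusted p = 0.0438). Cd68, the other tested macrophage and monocyte marker, went the other way, at 6.71 and 6.89 in CD4-Vα14Tg against 7.04 and 7.185 in WT. Its difference was -0.32 (limma adjusted p = 0.401). The mean log2 signal of the 7 macrophage and monocyte markers was 4.77 to 4.81 in CD4-Vα14Tg and 4.71 to 4.78 in WT. Csf1r, Lyz2, Adgre1, Cd14 and Fcgr1 among them were below the filter.

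The expression of proteasome genes differed little between the genotypes. In limma, 0 of the 46 tested members passed an adjusted p of 0.05 in either direction, where 265 of 13602 genes, or 1.95%, did (0.61% higher and 1.34% lower). At that rate a list of this length would hold about 1 call, so the count alone says little. At an unadjusted p under 0.05 there were also 0 members on the highest-mean probe set of each gene, against 11.7% of all genes. In that fit the lowest adjusted p of any member was 0.613, for Psmg1. With each of the 52 probe sets tested in its own right, 0 passed an adjusted p of 0.05, against 1.43% of all probe sets. There the dimmer probe set of Psmc2 had an unadjusted limma p of 0.00108, with a difference of -0.58.

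The sizes of the differences give the finer account. Over the 46 members the differences ran from -0.20 in Psmc5 to 0.26 in Psme2, with a median of 0.0063, beside a median of -0.022 over all genes tested. The median absolute difference was 0.062 in the members and 0.11 in all genes. The members were also brighter, with a median log2 signal of 8.28 beside 6.68 in all genes, and the part of signal level in this was not tested. The members had 24 positive and 22 negative differences, and 44% of all genes had a positive one. The 95% interval of a member reached 0.30 to either side at the median. For 45 of 46 members the interval lay wholly inside a 1.5-fold change either way, which is 0.58 on the log2 scale, and the same was true of 79% of all genes. The exception was Psme2, whose interval ended at 0.64. These intervals are for single genes, each on its highest-mean probe set, and are not adjusted for their number. The dimmer probe set of Psmc2 had an interval of -0.84 to -0.32.

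**Figure D1:**
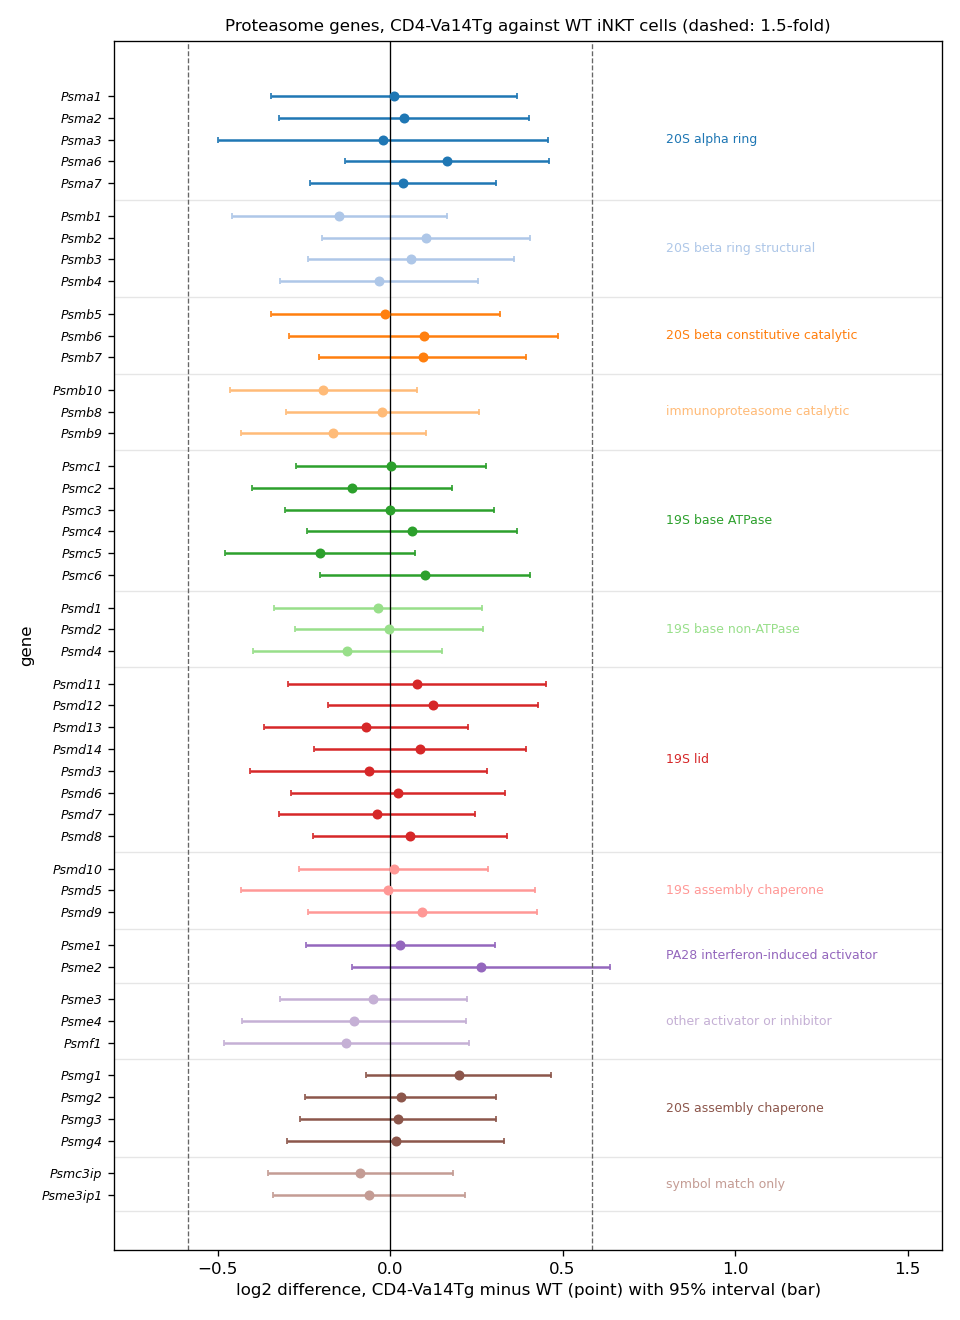
Log2 difference of each of the 46 tested members, CD4-Vα14Tg minus WT (points), with the 95% interval from limma (bars), grouped by place in the proteasome; dashed lines mark 1.5-fold. Every interval includes 0, and Psme2 alone reaches past a dashed line, at 0.64.

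**Figure D2:**
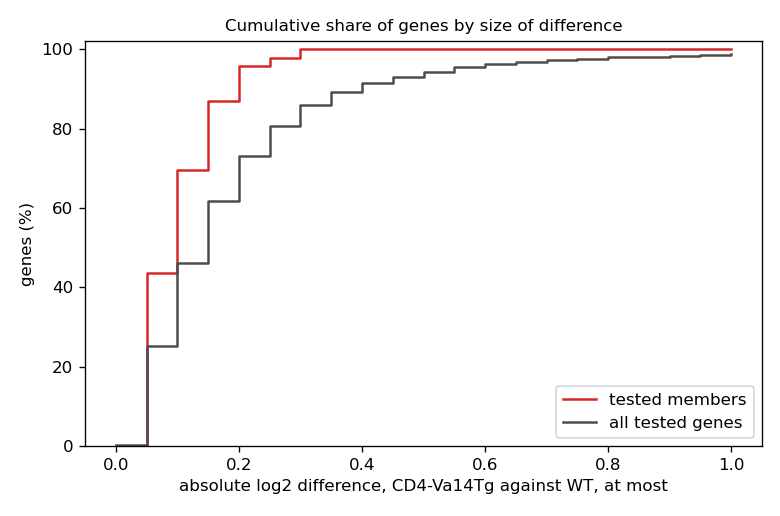
Cumulative share of genes (vertical axis, %) whose absolute log2 difference between the genotypes is at most the value on the horizontal axis, for the 46 tested members and the 13602 tested genes, read in steps of 0.05. At 0.10 the curves stand at 69.6% and 46.1%, and all members lie below 0.30, where 85.9% of all genes do.

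The α ring, which gates the entrance of the 20S core, had small differences throughout. Of its 5 tested genes, 4 had a positive and 1 a negative difference, with a median of 0.038, and 0 were called. Psma6 read 8.17 and 7.99 in CD4-Vα14Tg against 7.96 and 7.88 in WT. Its groups did not overlap, and the difference was 0.16 (95% interval -0.13 to 0.46, limma adjusted p = 0.743). Psma3 had the widest spread of any member. It read 10.30 and 9.66 in CD4-Vα14Tg against 10.002 and 10.001 in WT, so that both WT arrays fell between the transgenic ones and the difference was -0.021 (95% interval -0.50 to 0.46). Psma1, Psma2 and Psma7 had differences of 0.010, 0.040 and 0.038. Psma5, an α subunit that every 20S core contains, was dim on its brighter probe set, at 4.29 and 4.50 against 4.37 and 4.37, and its other probe set read from 3.59 to 4.07. These arrays therefore gave no usable measure of Psma5.

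The structural β subunits Psmb1 to Psmb4, which complete the inner rings without a catalytic site, had 2 positive and 2 negative differences with a median of 0.014, which ran from -0.0645 to 0.0925 without any 1 array. Psmb1 read 9.89 and 9.70 against 10.03 and 9.85, with overlapping groups and a difference of -0.15 (limma adjusted p = 0.801), or -0.24 to -0.056 without any 1 array. Psmb2, Psmb3 and Psmb4 differed by 0.10, 0.062 and -0.034.

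The constitutive catalytic subunits showed overlapping groups in all 3 genes. Psmb5, which carries the chymotrypsin-like site, read 7.62 and 7.56 in CD4-Vα14Tg against 7.76 and 7.45 in WT (difference -0.014, 95% interval -0.35 to 0.32). Psmb6, the caspase-like subunit, read 8.61 and 8.22 against 8.43 and 8.20 (difference 0.098, 95% interval -0.29 to 0.49). Psmb7, the trypsin-like subunit, read 9.61 and 9.51 against 9.56 and 9.37 (difference 0.094, 95% interval -0.21 to 0.39). In all 3 the arrays numbered 1 were the higher of each genotype.

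The immunoproteasome catalytic subunits had negative differences in all 3 genes, with a median of -0.17, and 0 were called. Psmb10, which takes the place of Psmb7, read 9.63 and 9.61 in CD4-Vα14Tg against 9.85 and 9.78 in WT. Both transgenic arrays were lower, by 0.19 at the mean (95% interval -0.47 to 0.08, limma adjusted p = 0.630). Psmb9, which takes the place of Psmb6, read 8.20 and 8.23 against 8.37 and 8.39. Again both transgenic arrays were the lower ones, with a difference of -0.17 (95% interval -0.43 to 0.10, limma adjusted p = 0.701). Psmb8, which takes the place of Psmb5, read 9.69 and 9.75 against 9.80 and 9.68, with overlapping groups and a difference of -0.023 (95% interval -0.30 to 0.26). The sign of Psmb8 was not stable. Its difference was 0.016 with quantile normalization applied again, and ran from -0.079 to 0.034 without any 1 array. Groups without overlap and lower in CD4-Vα14Tg were found for 6 of the 46 members and for 23.4% of all genes tested. Without overlap and higher were 3 members and 15.7% of all genes (39.1% in either direction). The 6 include Psmc3ip, which is not a proteasome gene, and Psme3, whose nearest arrays read 8.677 in CD4-Vα14Tg and 8.678 in WT. The 3 include Psme2, whose nearest arrays read 6.818 and 6.814.

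Psmb9 and Psmb8 lie next to the peptide transporter genes in the MHC region, in the order Psmb9, Tap1, Psmb8, Tap2 in the RefSeq annotation. Along that order the differences were -0.17, -0.078, -0.023 and 0.068, and none passed.

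Because each immunoproteasome subunit exchanges for a constitutive one, the change of each pair was also taken, as the log2 signal of the inducible gene minus that of its counterpart on the same array. Only the change of this quantity between groups can be read, since probe sets differ in brightness. For Psmb10 with Psmb7 it was 0.020 and 0.099 in CD4-Vα14Tg and 0.29 and 0.41 in WT, a change of -0.29 in which both transgenic arrays were lower. For Psmb9 with Psmb6 the change was -0.26 with overlapping arrays, and for Psmb8 with Psmb5 it was -0.0085. The exact permutation test over arrays, two-sided, gave p = 0.333, 0.667 and 1 for the 3 pairs, and 0.333 is the smallest value that 2 against 2 arrays allow. Leaving out single arrays moved the change of Psmb9 with Psmb6 between -0.48 and -0.048.

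The PA28 genes did not share a pattern. Psme1, the PA28α subunit, read 10.85 and 10.88 in CD4-Vα14Tg against 10.79 and 10.88 in WT, a difference of 0.030 (95% interval -0.25 to 0.30). Psme2, the PA28β subunit, had the largest positive difference of all members at 0.26 (95% interval -0.11 to 0.64, limma adjusted p = 0.638). It read 6.93 and 6.82 against 6.41 and 6.81, so that WT replicate 1 stood apart and the other 3 arrays lay between 6.81 and 6.93. Without WT replicate 1 the difference was 0.060, and without WT replicate 2 it was 0.47 (limma adjusted p = 0.369).

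Other regulators had small negative differences in 3 of 3 genes. Psme3, the nuclear PA28γ activator, read 8.677 and 8.644 against 8.678 and 8.740, with groups that barely parted (difference -0.049). Psme4, the PA200 activator, and Psmf1, the inhibitor PI31, differed by -0.10 and -0.13 with overlapping groups. Psmf1 was higher on the arrays numbered 2 of both genotypes, at 8.51 and 8.64 against 8.25 and 8.37 on those numbered 1.

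The 19S particle had a median difference of -0.0015 over its 17 genes, 8 positive and 9 negative. Among the 6 ATPases of the base, which unfold the substrate, Psmc5 had the largest negative difference of all members. It read 7.56 and 7.49 in CD4-Vα14Tg against 7.69 and 7.77 in WT, with no overlap and a difference of -0.20 (95% interval -0.48 to 0.07, limma adjusted p = 0.617). Psmc1 and Psmc3 were nearest to no difference, at 0.0025 and -0.0015. Psmc4 and Psmc6 had 0.064 and 0.10.

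Psmc2 was read differently by its 2 probe sets. The brighter one gave 8.46 and 8.28 against 8.50 and 8.45, with overlapping groups and a difference of -0.11 (95% interval -0.40 to 0.18, limma adjusted p = 0.864). The dimmer one gave 5.61 and 5.66 against 6.18 and 6.26, with both transgenic arrays lower and a difference of -0.58 (95% interval -0.84 to -0.32, limma adjusted p = 0.0639 over all named probe sets). The mean of both gave -0.35 (limma adjusted p = 0.249). The part of the transcript that each probe set covers was not analysed here.

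The scaffold genes of the base, Psmd1 and Psmd2, differed by -0.034 and -0.003, and Psmd4, a ubiquitin receptor, read 8.17 and 8.14 against 8.23 and 8.32, lower on both transgenic arrays by 0.12 at the mean (limma adjusted p = 0.818). In the lid, 5 of 8 genes had a positive difference and the median was 0.040. Psmd14, the deubiquitinase of the lid, read 8.43 and 8.19 against 8.23 and 8.21 (difference 0.087, 95% interval -0.22 to 0.39). Psmd12 and Psmd11, lid scaffold subunits, had 0.12 and 0.078. The differences of Psmd3, Psmd6, Psmd7, Psmd8 and Psmd13 lay between -0.069 and 0.058. All 8 lid genes had overlapping groups.

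The assembly chaperones, which build the core and the base and are not part of the finished particle, had a positive difference in 6 of 7 genes with a median of 0.023. Psmg1, which pairs with Psmg2 to form the α ring, read 7.01 and 7.04 in CD4-Vα14Tg against 6.84 and 6.82 in WT. Both transgenic arrays were higher, by 0.20 at the mean (95% interval -0.07 to 0.47, limma adjusted p = 0.613). Psmg2, its partner, read 7.97 and 7.91 against 7.86 and 7.96 (difference 0.031), and its dimmer probe set gave -0.15. Psmg3 and Psmg4, which form the other chaperone pair, differed by 0.023 and 0.016. Of the base chaperones, Psmd9 and Psmd10 had 0.093 and 0.010. Psmd5 read 8.02 and 8.42 against 8.05 and 8.41, high on both arrays numbered 2, with a difference of -0.0065.

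The tissue-restricted subunits lay below the filter on every array. Psmb11, the catalytic subunit of the thymoproteasome of cortical thymic epithelial cells, read from 3.41 to 3.86, and Psma8, the α subunit of germ cells, read from 3.87 to 4.22. Together with Psma5 these are the 3 members not tested. Psmc3ip read 5.40 and 5.40 against 5.48 and 5.50 (difference -0.086) and Psme3ip1 had -0.062.

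Gaps between arrays of the same genotype were set beside the differences between the genotypes. In 40 of the 46 members the larger gap between the arrays of a group exceeded the difference between the groups, as it did in 72% of all genes. In the 20S core without the immunoproteasome subunits this held for 12 of 12 genes, with a median larger gap of 0.20 beside a median absolute genotype difference of 0.051. In the immunoproteasome catalytic genes it held for 1 of 3, Psmb8.

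In CD4-Vα14Tg most gaps between the 2 arrays ran in the same direction within the particle, and in WT this was so in the core only. CD4-Vα14Tg replicate 1 was above CD4-Vα14Tg replicate 2 in 34 of 46 members, against 48.5% of all genes, and in 11 of the 12 core genes and 15 of the 17 genes of the 19S particle. The median gap was 0.18 in the core and 0.13 in the 19S particle, and -0.008 over all genes. In WT, replicate 1 was above replicate 2 in 23 of 46 members, against 44.0% of all genes. This held for 10 of the 12 core genes, with a median gap of 0.16, and for 8 of the 17 genes of the 19S particle, with -0.029. Over all genes the WT median gap was -0.03. Of the 3 immunoproteasome catalytic genes, replicate 1 was above replicate 2 in 1 in CD4-Vα14Tg and in 2 in WT. Their median gaps were -0.034 and 0.069. Psmd11 shows the transgenic pattern, at 9.31 and 8.94 against 8.96 and 9.14 in WT. What the arrays shared in handling is not given, and a part of RNA quality or labelling in these gaps was not tested.

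**Figure D3:**
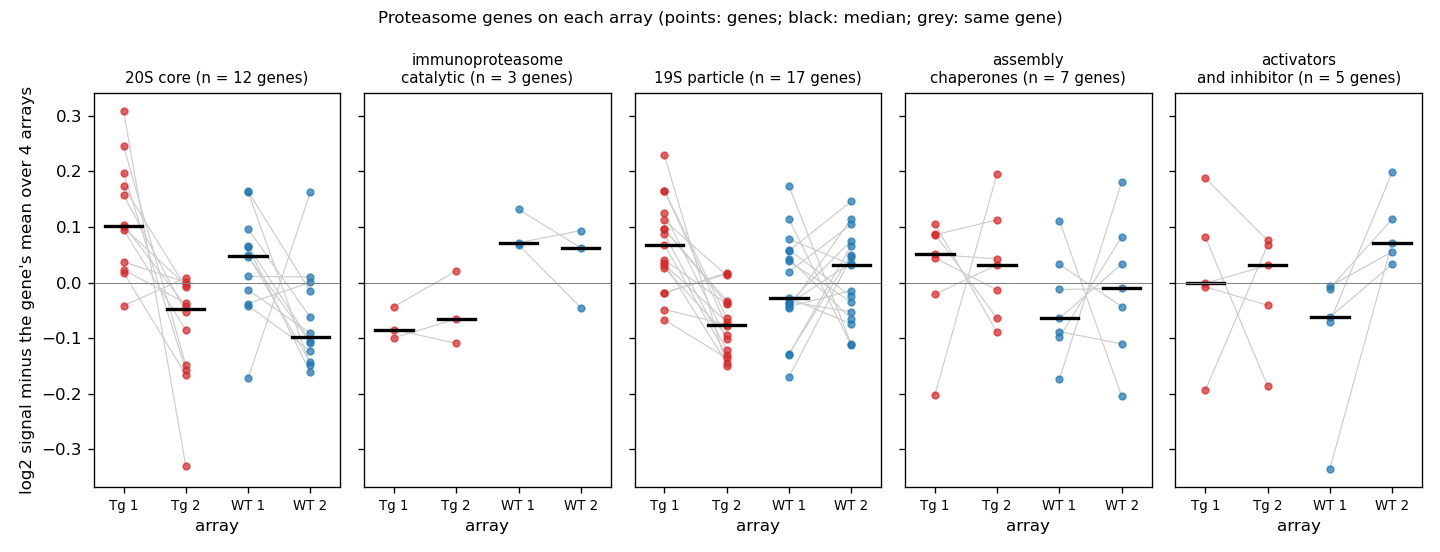
Log2 signal of each tested proteasome gene minus its mean over the 4 arrays (vertical axis), by array (Tg, CD4-Vα14Tg, red; WT, blue) and group of genes; points are genes, black bars medians, and grey lines join a gene's values within a genotype. The median of the 20S core is higher on replicate 1 in both genotypes, that of the 19S particle on replicate 1 in CD4-Vα14Tg and on replicate 2 in WT, and the 3 immunoproteasome genes have medians of -0.085 and -0.066 in CD4-Vα14Tg against 0.072 and 0.063 in WT.

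Genes that work with the proteasome but carry other symbols were read from lists of partners. Of 11 tested bound factors, deubiquitinases and further subunits, 0 were called, beside 1.95% of all genes. A count of 0 in so short a list says little. The median was -0.062 with 9 negative differences, and 44% of all genes had a positive one. Ecpas, the Ecm29 protein that tethers core and 19S particle, read 8.15 and 8.06 in CD4-Vα14Tg against 8.38 and 8.52 in WT, lower on both arrays with a difference of -0.34 (95% interval -0.63 to -0.06, limma adjusted p = 0.299). It was the only one of the 11 with an unadjusted p under 0.05. Pomp, the maturation factor of the core, differed by -0.29 (limma adjusted p = 0.560), and the deubiquitinases Usp14 and Uchl5 by -0.062 and -0.0265. Without any 1 array the Pomp difference ran from -0.49 to -0.10.

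Of 11 tested genes that deliver or unfold substrates, 0 were called, beside 1.95% of all genes, and the median was -0.051. The unfoldase gene Vcp differed by 0.044 and Faf1, one of its cofactors, by -0.27 (limma adjusted p = 0.485). Of the ubiquitin genes and their activating enzymes only Uba6 had a probe set of its own, at 0.042. Of 11 tested transcriptional regulators of proteasome genes, 0 were called and the median was -0.041. This list is also too short for a count of 0 to say much. Nfe2l1, the factor that raises subunit genes when proteasome activity is short, differed by -0.12 (95% interval -0.42 to 0.19), and Nfe2l2, its stress-responsive relative, by -0.27. Without any 1 array these differences ran from -0.22 to -0.007 and from -0.48 to -0.049. Maff, a small MAF partner of both, read 7.65 and 7.36 against 8.17 and 7.78, a difference of -0.47 (limma adjusted p = 0.322), and was the only one of the 11 with an unadjusted p under 0.05.

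The list of interferon-linked peptide processing and loading held calls in both directions, 1 higher and 2 lower of 10 tested. Over all genes the shares were 0.61% higher and 1.34% lower. The list, chosen with earlier results of these data known, also includes the chains of the interferon-γ receptor and the regulators Irf1 and Nlrc5. Both receptor chains were called, and among the processing and loading genes only H2-K1 was. Ifngr1, the ligand-binding chain of the interferon-γ receptor, read 8.96 and 8.98 in CD4-Vα14Tg against 9.95 and 10.26 in WT. It was 2.19-fold lower (log2 difference -1.13, 95% interval -1.47 to -0.80, limma adjusted p = 0.0108). Ifngr2, the signalling chain of the same receptor, read 7.88 and 7.71 against 6.82 and 6.63, and was 2.10-fold higher (log2 difference 1.07, 95% interval 0.76 to 1.38, limma adjusted p = 0.0108). Both calls were kept without any 1 array. The part of the lower Il2rb and Klrb1c and the higher Itgam in these calls was not tested.

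H2-K1, an MHC class I heavy chain gene with close relatives that probes may not separate, read 10.58 and 10.61 against 11.32 and 11.19, and was 1.58-fold lower (limma adjusted p = 0.0438). That call was lost without any 1 of the 4 arrays (limma adjusted p from 0.111 to 0.169), while the difference stayed between -0.73 and -0.60. Each of those fits leaves 1 array in a group, which is assumed to vary like the other group. Nlrc5, the activator of class I genes, read 8.23 and 8.41 against 8.80 and 8.98, lower on both arrays with a difference of -0.57 (95% interval -0.88 to -0.26, limma adjusted p = 0.100). Irf1, an interferon-induced transcription factor, differed by -0.52 (limma adjusted p = 0.382). The loading genes Tap1, Tap2, Tapbp, Erap1 and B2m had differences between -0.13 and 0.068, in the range of the immunoproteasome and PA28 genes.

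**Figure D4:**
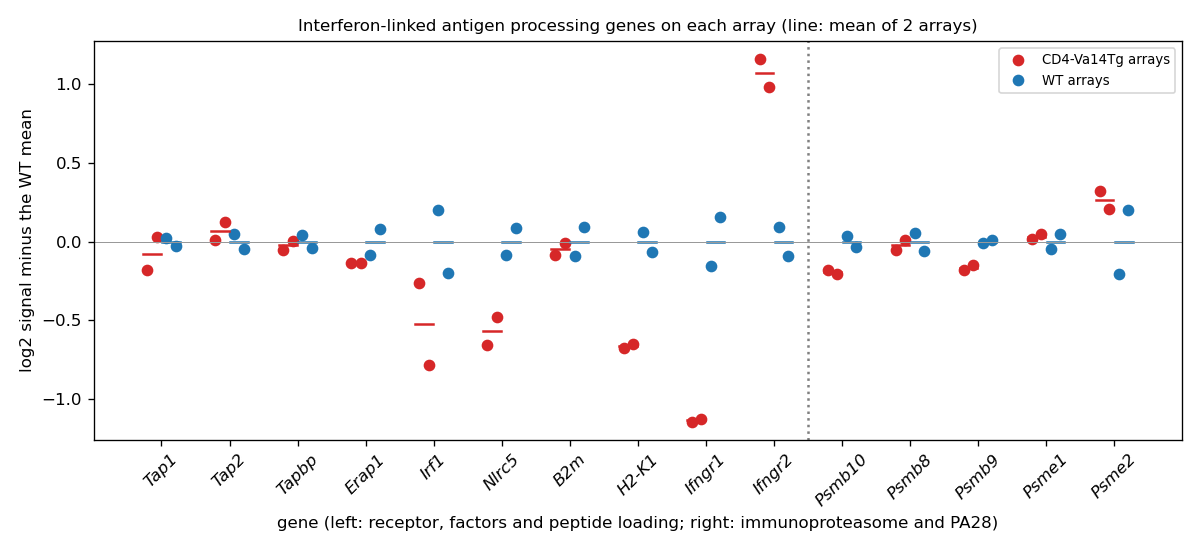
Log2 signal minus the WT mean (vertical axis) on each array. Left of the dotted line are the 10 tested genes of the interferon-linked list (receptor chains, regulators, processing and loading genes). Right of it are the immunoproteasome and PA28 genes. Red marks CD4-Vα14Tg, blue marks WT, and lines are means of 2 arrays. Ifngr1 and Ifngr2 lie about 1 unit below and above WT (-1.13 and 1.07), while the 5 genes on the right lie between -0.19 and 0.26.

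The promoters of the members were read in RefSeq, assembly GRCm38.p6, from 250 bases before to 50 after each start. Of the 49 members, 41 matched, with 45 promoters. Both strands were searched for short motifs, and a match is a description of the letters, not a site in use. CCGGAAG, the core of sites for ETS factors, occurred in 17 of the 45, or 37.8%, beside 8.86% of all 32851 promoters of that length and 15.8% of those of tested genes. The 17 belonged to 16 genes, among them Psmc3ip and Psme3ip1, which are not proteasome genes. The median G and C content was 57.3% in the members' promoters, 60% in those of tested genes and 52.7% in all. CCAAT occurred in 35.6% of the members' promoters, 37.4% of all and 36.6% of those of tested genes. TGACNNNGC is the core of the antioxidant response element bound by Nfe2l1 and Nfe2l2. Its shares were 13.3%, 12.4% and 14.1% in the same order. For TTCNNNGAA, a STAT site, they were 6.67%, 8.30% and 6.8%. The interferon-stimulated response element occurred in 5 of 45 or 11.1%, against 3.44% of all and 3.06% of those of tested genes. The 5 were promoters of Psmb3, Psmd4, Psmd9, Psme1 and Psmg4, and of these only Psme1 is an immunoproteasome or PA28 gene.

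The windows printed here show a selection of the matches, in genes of the 19S particle and in catalytic and PA28 genes. Psmc2, Psmc6, Psmd4, Psmd11 and Psmd13 of the 19S particle also had CCGGAAG and are not printed. Capitals mark the match, which is printed as its reverse complement where the motif lies on the opposite strand, and no printed match overlapped another of the motifs. Each runs 5′ to 3′ along the gene's strand. Psmc1 has CCGGAAG at 28 bases before the start (chr12:100110154-100110200, plus strand), Psmd2 at 26 (chr16:20651606-20651651, plus), Psmd6 at 45 (chr14:14120964-14121010, minus) and Psmd12 at 17 (chr11:107479491-107479527, plus). Psmb5 has TGACNNNGC at 47 bases before the start (chr14:54618014-54618062, minus) and Psmb6 at 9 (chr11:70525328-70525356, plus). Psmb8 has TTCNNNGAA at 97 bases before the start (chr17:34198078-34198126, plus), and in Psme1 the interferon-stimulated response element begins at base 10 of the transcript (chr14:55578493-55578522, plus).
Psmc1: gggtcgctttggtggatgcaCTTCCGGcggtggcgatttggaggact
Psmd2: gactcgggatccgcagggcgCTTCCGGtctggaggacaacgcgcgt
Psmd6: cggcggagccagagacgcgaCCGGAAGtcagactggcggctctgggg
Psmd12: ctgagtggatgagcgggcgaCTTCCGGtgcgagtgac
Psmb5: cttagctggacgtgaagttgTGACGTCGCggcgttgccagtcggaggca
Psmb6: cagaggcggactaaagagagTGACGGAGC
Psmb8: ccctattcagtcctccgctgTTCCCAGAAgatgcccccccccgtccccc
Psme1: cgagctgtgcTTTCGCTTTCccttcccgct

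Beside these sequences, the 4 genes of the 19S particle shown had differences of 0.0025, -0.003, 0.022 and 0.12 in the order printed, and the catalytic and PA28 genes -0.014, 0.098, -0.023 and 0.030. None passed limma's test.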

How the data were processed

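The deposited values are log2 signals per probe set and array, made with RMA and Affymetrix Power Tools per the submitters' processing notes; their versions and options, and the genome build, are not stated there. Quantile normalization over arrays, a step of RMA, hides any change of total RNA per cell, and fewer cells of a type cannot be told apart from less RNA per cell. Of 41345 probe sets, 23521 had 1 symbol in the platform annotation, 1814 several and 16010 none there; only the first were used, and the number of arrays limits the precision.

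Groups came from the sample titles. R 4.3.3 with limma 3.58.1 gave the two-sided tests (a linear model per gene with eBayes moderation), with Benjamini-Hochberg adjustment over 13602 genes and 95% intervals from the same fit; the script was tested on simulated data. Each promoter was read from a RefSeq table of assembly GRCm38.p6. The members, role groups, partner lists and alternatives were chosen with earlier results of these data known. Genes were named by role: all catalytic and PA28 genes, the 6 largest differences in each direction, and 1 to 3 genes of each partner list by absolute moderated t, other members inside their role group; Vcp, Usp14, Uchl5, Nfe2l1, Irf1 and the loading genes were added for their roles. The 11 alternatives changed the normalization, filter, probe set, variance model or replicates. Tables were made with Python 3.11.15 and pandas 2.3.3, plots with matplotlib 3.10.9.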

Additional observations from a re-analysis of the deposited data

How the results depend on the processing

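With 2 arrays a group, no member was called under any of the 11 alternatives, and the lowest adjusted p of a member was 0.249, for Psmc2 with the mean of its probe sets. Only 13 of 46 members kept their sign in all 11. Normalizing by quantiles again turned Psma3 to 0.017, Psmb5 to 0.0054, Psmb8 to 0.016, Psmc3 to 0.021, Psmd2 to 0.034 and Psmd5 to 0.023, and moved the immunoproteasome median to -0.15. Psmg2 was -0.058 with the mean of its probe sets and -0.15 on its dimmer one, a fit added after seeing the data. The replicate block gave 252 genes higher and 422 lower and 4 interferon-linked genes lower (Ifngr1, H2-K1, Nlrc5 with adjusted p = 0.0272 and Irf1 with adjusted p = 0.0405), and called no member; the numbers are not stated to pair the arrays, and replicate deviations correlated across genes at 0.262. Quantiles again and no filter each left 1 interferon-linked gene lower, as did leaving out any 1 array (1 to 1).

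Leaving out 1 array in turn gave 52 to 74 genes higher and 101 to 147 lower (lower: 117 and 110 without replicates 1 and 2 of CD4-Vα14Tg, 101 without WT replicate 2). A group left with 1 array is assumed there to vary like the other group. The group medians ran from -0.08 to 0.22 in the α ring, -0.0645 to 0.0925 in the structural β genes, -0.044 to 0.19 in the constitutive catalytic genes, -0.18 to -0.15 in the immunoproteasome, -0.038 to 0.011 in the ATPases, 0.021 to 0.27 in PA28, -0.14 to 0.008 in the other base genes, -0.09 to 0.13 in the lid, -0.028 to 0.089 in the base chaperones, -0.17 to -0.018 in the other regulators and -0.025 to 0.11 in the core chaperones. Single differences changed sign over these ranges: Psma1 -0.16 to 0.18, Psma2 -0.14 to 0.22, Psma3 -0.34 to 0.30, Psmb2 -0.001 to 0.21, Psmb3 -0.016 to 0.14, Psmb4 -0.11 to 0.046 and Psmb5 -0.17 to 0.14. The ranges were Psmb6 -0.10 to 0.29, Psmb7 -0.002 to 0.19, Psmb8 -0.079 to 0.034, Psmc1 -0.037 to 0.042, Psmc3 -0.12 to 0.11, Psmc4 -0.035 to 0.16 and Psmc6 -0.013 to 0.22. For base and lid genes they were Psmd1 -0.14 to 0.07, Psmd2 -0.0395 to 0.034, Psmd3 -0.20 to 0.0795, Psmd6 -0.091 to 0.14, Psmd7 -0.095 to 0.018, Psmd8 -0.0085 to 0.12, Psmd11 -0.11 to 0.27, Psmd13 -0.15 to 0.011 and Psmd14 -0.034 to 0.21. The remaining members had Psmd5 -0.21 to 0.19, Psmd9 -0.065 to 0.25, Psmd10 -0.028 to 0.049, Psme1 -0.018 to 0.077, Psme4 -0.24 to 0.0305, Psmf1 -0.26 to 0.0075, Psmg2 -0.018 to 0.08, Psmg3 -0.053 to 0.10, Psmg4 -0.082 to 0.11 and Psme3ip1 -0.13 to 0.0035. Of the partners, Ubqln4 ran from -0.29 to 0.013, Uba6 from -0.10 to 0.18, Usp14 from -0.18 to 0.058, Uchl5 from -0.079 to 0.026, Vcp from -0.14 to 0.23, Tap1 from -0.18 to 0.027, Tapbp from -0.066 to 0.017 and B2m from -0.14 to 0.048. Vcp was -0.002 with the mean of its probe sets and Tapbp 0.018 with quantiles again. The cause of these moves was not tested.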
